A study of Mus musculus with 12 samples.

Results

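Read pairs that join mitochondrial DNA (chrM) to an autosome were studied in 6 chromatin interaction libraries of mouse cells. An interaction was a member where 1 of its anchors, the restriction fragments grouped by the authors' software, lay on chrM and the other on chromosomes 1 to 19. Over the 6 libraries, 68216 of 920031 autosomal anchors with distinct coordinates had at least 1 read pair with chrM. The choice used only the chromosome names of the anchors, not the number of read pairs.

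The cells were E14Tg2A mouse embryonic stem cells (ESC), kept with leukemia inhibitory factor (LIF) at 100 U/mL, and neuronal committed cells (NCC), obtained from the same line with 1 µM retinoic acid for 48 h in medium without LIF. Hi-C maps all chromatin contacts by ligation of digested DNA, and HiChIP adds an immunoprecipitation of the ligated chromatin, here with antibodies against the growth factor receptor FGFR1 or the architectural protein CTCF. The labels give 2 replicates for every cell type in every assay, and the paper describes them as biological. The authors merged them, which leaves 6 pooled libraries of 1 cell line. The spread between replicates is thus unknown. All intervals are 95% intervals for counting error only, and tests on read pairs compare pooled libraries, not the conditions.

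Mitochondrial DNA is a circular genome in the mitochondrial matrix, separated by membranes from the nucleus, and a cell holds many copies of it. It encodes subunits of the respiratory chain and the ribosomal and transfer RNAs to translate them, while all other mitochondrial proteins come from nuclear genes. Fragments of mitochondrial DNA have also entered the nuclear chromosomes during evolution. Such nuclear copies resemble chrM in sequence, so that a short read may fit both places.

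A search of the autosomes with the chrM sequence (BLAST, 80% identity and 100 bases or more) found 46 matches in the GRCm38 reference, with lengths from 101 to 4654 aligned bases and a median of 276. Only 8 matches had 95% identity or more, and 9 held at least 1 window of 75 bases, the read length of the study, identical to chrM. The longest lay on the minus strand of chromosome 1, at chr1:24611535-24616188, and matched chrM 6390 to 11042 with 99.936% identity. It spans pseudogene copies of 7 mitochondrial genes. These are Gm29216 and Gm28661 (from mt-Co1 and mt-Co2) and Gm28437 (from mt-Co3), all cytochrome c oxidase subunits, Gm10925 (from mt-Atp6, an ATP synthase subunit), and Gm28438, Gm10222 and Gm28439 (from mt-Nd3, mt-Nd4l and mt-Nd4, complex I subunits).

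The copy differed from chrM at 2 substitutions, A6393T close to the end of the match and T9461C in mt-Nd3, and at 1 extra base in a run of A at chrM 9825 in mt-Tr, a transfer RNA gene. Positions are counted from 1 at the start of chrM, with the chrM base first. Of 4580 windows of 75 bases in the match, 4434 (96.8%) were identical to chrM. The sequences below show how alike both places are, with the changed base of mt-Nd3 in capitals for chrM 9447 to 9475 (plus strand) and for chr1:24613103-24613131 (minus strand), and with the ends of the copy, matched bases in capitals, at chr1:24611520-24611549 and chr1:24616174-24616203 (both plus strand).
chrM in mt-Nd3: cagaagagagtaatTaacctgtacactgt
copy in Gm28438: cagaagagagtaatCaacctgtacactgt
lower end of the copy: tggctactttctctaGCTAACTGAGGAGTA
upper end of the copy: GGATAAAACAAATCCtgccaatccatgagc
The first 2 sequences also hold bases before the start of the named gene, which is at chrM 9459 for mt-Nd3 and at chr1:24613119 for Gm28438. The sequences are those of the RefSeq GRCm38 assembly of the strain C57BL/6J. E14Tg2A comes from another strain, and its own sequence was not read here.

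A single anchor inside this copy, chr1:24611839-24614410, with the same ends in all 6 libraries, stood apart from all other partners of chrM. In Hi-C, it had 55 read pairs with chrM in ESC and 145 in NCC. The FGFR1 HiChIP libraries had 89 (ESC) and 253 (NCC) such read pairs, and the CTCF HiChIP libraries 20 (ESC) and 40 (NCC). NCC was higher than ESC in each of the 3 assays, and the anchor held the most chrM read pairs of all autosomal anchors in each of the 6 libraries.

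The expected number was the anchor's share of the read-pair ends between different autosomes, multiplied by the chrM read pairs of the library. It lay between 0.456 and 1.27 read pairs. Observed over expected was 72.7 in ESC Hi-C (54.8–94.6) and 156 in NCC Hi-C (132–184). It was 137 (110–169) and 199 (175–225) in the ESC and NCC FGFR1 HiChIP libraries. The lowest values were those of CTCF HiChIP, with 43.8 for ESC (26.8–67.7) and 45.3 for NCC (32.4–61.7). With at least 10 read pairs and at least 10 times the expectation as the limits, it was the only anchor called in each library. This is 0.000408% of the anchors tested in ESC Hi-C, 0.000411% in NCC Hi-C, 0.000498% and 0.000447% in ESC and NCC FGFR1 HiChIP, and 0.000599% and 0.000603% in ESC and NCC CTCF HiChIP.

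**Figure D1:**
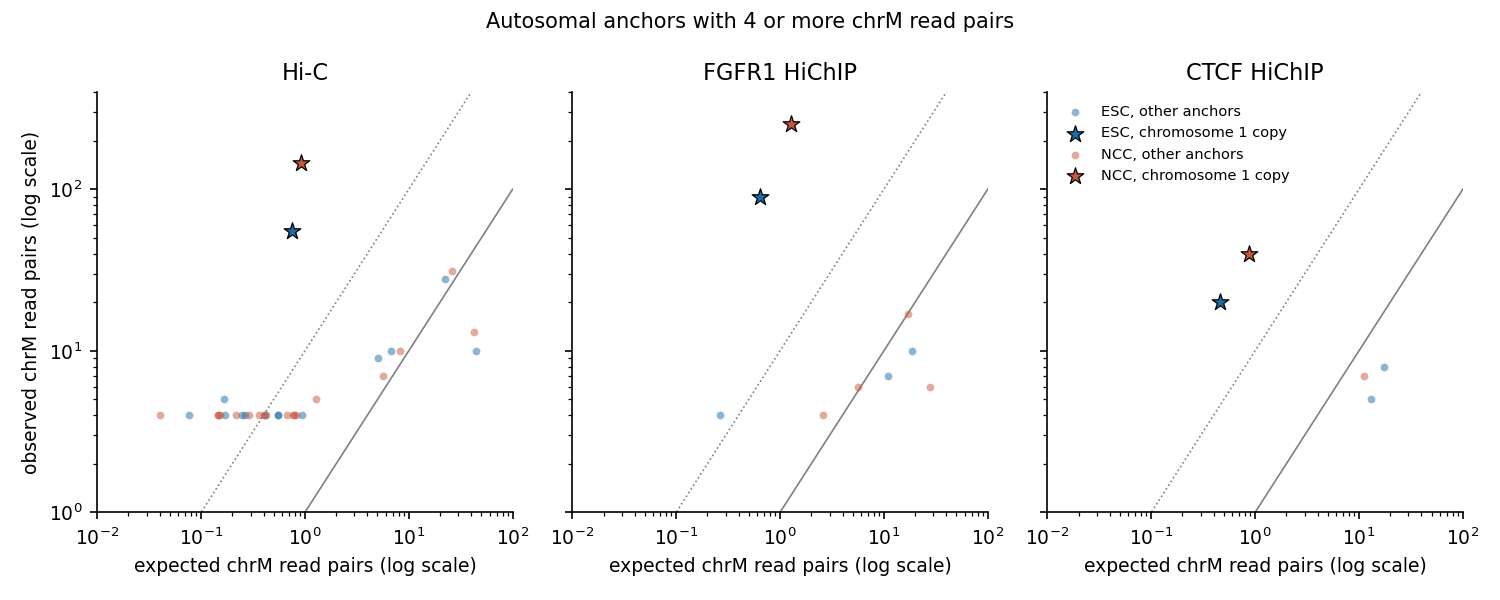
Observed against expected chrM read pairs, both on log scales, for the autosomal anchors with 4 or more chrM read pairs in each pooled library (ESC blue, NCC red). The solid line is equality and the dotted line 10 times the expectation. The stars are the anchor in the chromosome 1 copy, with 20 to 253 read pairs, and they are the only points above the dotted line that also have 10 or more read pairs.

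The contacts of this anchor with the nucleus differed from those of its neighbors. Of its read-pair ends with autosomes, 137 of 149 (91.9%, Wilson interval 86.5–95.3%) went to other chromosomes in ESC Hi-C and 184 of 200 (92.0%, 87.4–95.02%) in NCC Hi-C. Over the 6 libraries this share was 89.7–94.2%, against 8.86–12.9% for the anchors within 1 mb on both sides. No read pair lay inside the anchor in any of the 6 libraries, a count that was not set against that of its neighbors. Of its read-pair ends with chrM and the autosomes together, 27.0% were with chrM in ESC Hi-C and 42.0% in NCC Hi-C, 63.1% and 71.3% in FGFR1 HiChIP, and 40.8% and 44.9% in CTCF HiChIP. The flanking anchors had 19 chrM read pairs against 11.3 expected in ESC Hi-C and 17 against 10.95 in NCC Hi-C, 8 against 3.88 and 9 against 6.76 in ESC and NCC FGFR1 HiChIP, and 3 against 1.97 and 2 against 3.07 in ESC and NCC CTCF HiChIP.

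The anchor of the copy corresponds to chrM 8168 to 10738. Of its 2498 windows of 75 bases, 142 were not identical to chrM, and 94.3% were identical. On chrM itself, each library had 2 anchors, 1 to 6990 in Hi-C (1 to 7085 in HiChIP) and 9385 to 16299 (to 16180 in ESC FGFR1 HiChIP). The stretch between them, with mt-Co2, mt-Atp8, mt-Atp6 and most of mt-Co3, had no anchor. In the Hi-C libraries all 2320 windows of this stretch were identical to the copy, against 7.56% in the first and 21.1% in the second chrM anchor.

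The second longest match, chr2:22587288-22590534, with 97.4% identity to chrM 4441 to 7699, held no anchor in any library. The third, chr4:80002330-80005200 (93.0% identity), had an anchor in 3 libraries and no chrM read pair. Of the 46 matches, 21 held an anchor in ESC Hi-C, 18 in NCC Hi-C, 16 and 15 in ESC and NCC FGFR1 HiChIP, and 10 in each CTCF HiChIP library. Without the chromosome 1 copy, the matched anchors together had 2 chrM read pairs in ESC Hi-C, where 2.81 were expected, and 1 in NCC Hi-C, where 2.79 were expected. They had 1 read pair in each FGFR1 HiChIP library and 0 in each CTCF HiChIP library, where the intervals of 0 read pairs reach 17.5 times the expectation in ESC and 13.7 times in NCC. An excess over the expectation was therefore measured at 1 of the 46 matches, and most of the others could not be measured because they held no anchor or too few contacts.

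Other anchors with 10 or more chrM read pairs were places with very many contacts of all kinds. The anchor chr2:98661542-98668221, which holds Gm10801 and Gm10800, had 28 chrM read pairs in ESC Hi-C and 31 in NCC Hi-C, with 22.5 and 26.0 expected. The anchor chr17:39842463-39849607, with Gm26917 and other transcripts, had 10 in ESC Hi-C and 13 in NCC Hi-C, with 44.7 and 42.4 expected. Its ratio was thus 0.224 (0.107–0.411) and 0.306 (0.163–0.524), below 1. The anchor chr11:3183823-3191398 at Sfi1 and Drg1 had 10 in each, with 6.82 and 8.20 expected. The intervals of the chromosome 2 and chromosome 11 anchors included 1 in both Hi-C libraries.

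Away from these places, the partners were spread thinly. The total was 22890 chrM to autosome read pairs in ESC Hi-C and 24503 in NCC Hi-C, 7582 and 10708 in ESC and NCC FGFR1 HiChIP, and 4189 and 4941 in ESC and NCC CTCF HiChIP. Anchors with a single chrM read pair held 85.6% of them in ESC Hi-C and 85.0% in NCC Hi-C, and 91.0–95.9% in the HiChIP libraries. Autosomal anchors with any chrM read pair made up 8.62% and 9.23% of all autosomal anchors in ESC and NCC Hi-C, 3.64% and 4.51% in FGFR1 HiChIP, and 2.45% and 2.90% in CTCF HiChIP. The libraries hold between 1065662 (NCC CTCF HiChIP) and 21279750 (NCC Hi-C) read pairs in all, so that these shares were not taken at equal depth. NCC CTCF HiChIP had fewer read pairs than ESC CTCF HiChIP (1226039) but the larger share. What part depth has in these shares was not tested.

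As a share of the read pairs between different autosomes and between autosomes and chrM, the chrM pairs made up 1.09% in ESC Hi-C (Wilson interval 1.08–1.11%) and 0.998% in NCC Hi-C (0.986–1.01%). The share was 2.58% (2.52–2.64%) and 2.64% (2.59–2.69%) in ESC and NCC FGFR1 HiChIP, and 3.39% (3.29–3.49%) and 3.70% (3.60–3.80%) in ESC and NCC CTCF HiChIP. With all scores kept, both HiChIP assays were above Hi-C in both cell types. At a score of 2 or more, ESC CTCF HiChIP (4.33%, 3.58–5.23%) was below ESC Hi-C (7.08%, 6.77–7.39%). The intervals of NCC CTCF HiChIP (8.07–10.99%) and NCC Hi-C (8.59–9.32%) then overlapped. Per read pair between autosomes, FGFR1 HiChIP exceeded Hi-C 2.40 times in ESC (2.34–2.46) and 2.69 times in NCC (2.63–2.75), and CTCF HiChIP 3.18 times (3.08–3.29) and 3.81 times (3.69–3.92).

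Read pairs inside chrM were enriched more strongly still. They numbered 1800 in ESC Hi-C and 3630 in NCC Hi-C, 4219 and 11961 in FGFR1 HiChIP, and 801 and 1375 in CTCF HiChIP. Per read pair of the library, FGFR1 HiChIP had 18.2 times the Hi-C value in ESC and 21.7 times in NCC, and CTCF HiChIP 7.55 and 7.56 times. For each read pair inside chrM there were 12.7 nuclear ones in ESC Hi-C and 6.75 in NCC Hi-C, against 1.80 and 0.895 in FGFR1 HiChIP and 5.23 and 3.59 in CTCF HiChIP. HiChIP and Hi-C libraries differ in the immunoprecipitation and in depth, and what part of these differences each has cannot be told apart here.

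NCC were compared with ESC to ask whether contacts of chrM with the nucleus differ between the cell types once candidate nuclear copies are left out. Candidates were all anchors that overlap a sequence match or were called for their many read pairs. Per read pair between autosomes, the NCC over ESC ratio in Hi-C was 0.913 with all anchors (0.896–0.929, adjusted p = 9.49e-23, exact binomial test, two-sided, Benjamini-Hochberg over 6 ratios). Without candidates it was 0.910 (0.893–0.926, adjusted p = 4.89e-24 by the same exact test). In FGFR1 HiChIP the exact test did not pass, with a ratio of 1.02 (0.994–1.05, adjusted p = 0.141) and without candidates of 1.01 (0.982–1.04, adjusted p = 0.450). In CTCF HiChIP the ratio was 1.09 (1.05–1.14, exact test, adjusted p = 4.86e-05) and without candidates 1.09 (1.04–1.14, adjusted p = 7.47e-05). Leaving out the candidates changed no call. The candidates held between 0.249% (ESC Hi-C) and 2.37% (NCC FGFR1 HiChIP) of the chrM to autosome read pairs. Leaving out so few read pairs could not move a ratio far, so that this outcome says little about the candidates.

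The direction depended on the scale. Read pairs between autosomes were themselves more frequent in NCC than in ESC per 1000000 read pairs, 1.15 times in Hi-C, 1.14 times in FGFR1 HiChIP and 1.24 times in CTCF HiChIP. Per autosomal read pair of all kinds, the NCC over ESC ratio of chrM pairs was therefore above 1 in all 3 assays, at 1.05 in Hi-C (1.03–1.06), 1.18 in FGFR1 HiChIP (1.14–1.21) and 1.36 in CTCF HiChIP (1.31–1.42). Per read pair inside chrM, it was below 1 in all 3, at 0.531 (0.5002–0.563), 0.498 (0.476–0.522) and 0.687 (0.624–0.757). No direction common to all scales was found in any assay.

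**Figure D2:**
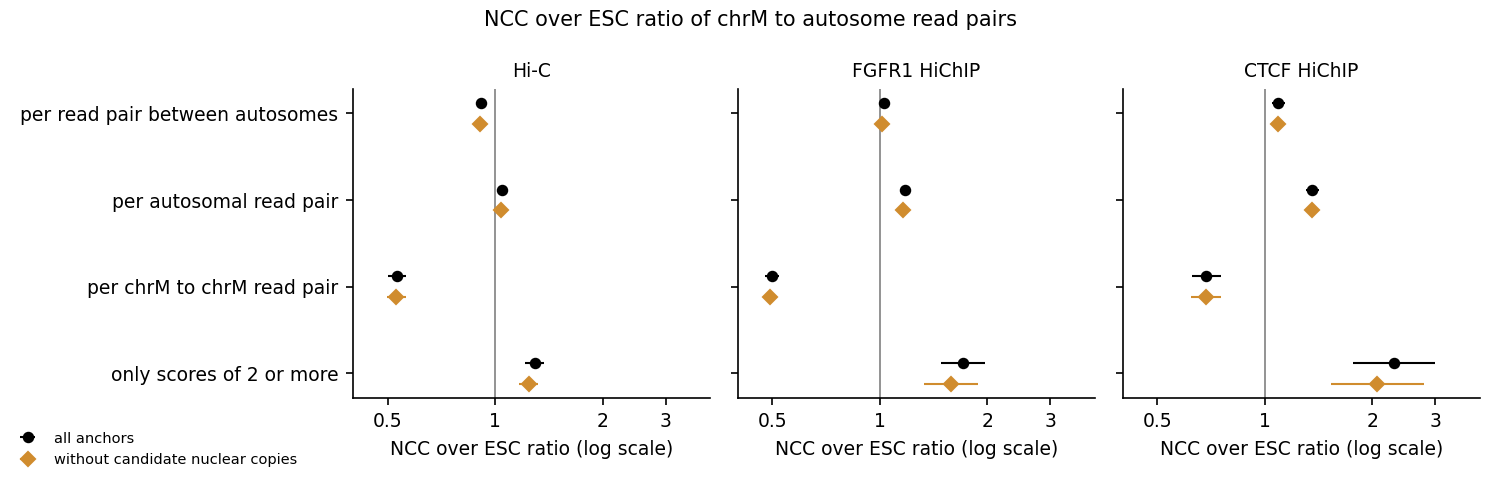
NCC over ESC ratio of chrM to autosome read pairs (log scale) for 3 assays, under 3 scales and for interactions with a score of 2 or more, with all anchors (black circles) and without candidate nuclear copies (orange diamonds). Bars are 95% intervals for counting error. Circles and diamonds lie close together within each scale, while the scales differ in direction (in Hi-C, 0.913 per read pair between autosomes and 1.05 per autosomal read pair).

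The NCC over ESC ratios of the chromosome 1 copy lay nearer to those of read pairs inside chrM than to those of the other partners. Per 1000000 read pairs, the copy had 2.65 read pairs with chrM in ESC Hi-C and 6.81 in NCC Hi-C, a ratio of 2.58 (1.88–3.58). In FGFR1 HiChIP it had 33.2 and 78.3, a ratio of 2.36 (1.84–3.04), and in CTCF HiChIP 16.3 and 37.5, a ratio of 2.30 (1.31–4.15). Read pairs inside chrM had ratios of 1.97 (1.86–2.09), 2.35 (2.27–2.43) and 1.97 (1.81–2.16). All other autosomal anchors together had ratios of 1.04 (1.02–1.06), 1.16 (1.12–1.19) and 1.35 (1.30–1.41).

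Relative to these other partners, the copy's read pairs with chrM were 2.47 times as frequent in NCC as in ESC in Hi-C (1.81–3.37, adjusted p = 7.15e-09, Fisher's exact test, two-sided, Benjamini-Hochberg over 6 comparisons). In FGFR1 HiChIP the ratio was 2.04 (1.60–2.60, Fisher's exact test, adjusted p = 7.15e-09). In CTCF HiChIP it was 1.70 (0.993–2.91), which did not pass (Fisher's exact test, adjusted p = 0.104). Relative to read pairs inside chrM, the ratio was 1.31 in Hi-C (0.954–1.79), 1.00 in FGFR1 HiChIP (0.786–1.28) and 1.17 in CTCF HiChIP (0.676–2.01), and none passed Fisher's exact test (lowest adjusted p = 0.161). These comparisons were chosen after the copy's values were seen, so that their p-values are a description. For each 100 read pairs inside chrM, the copy had 3.06 and 3.99 read pairs with chrM in ESC and NCC Hi-C, 2.11 and 2.12 in FGFR1 HiChIP, and 2.50 and 2.91 in CTCF HiChIP. Read pairs inside chrM themselves ranged from 86.6 per 1000000 in ESC Hi-C to 3701 per 1000000 in NCC FGFR1 HiChIP.

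The copy's read pairs with other autosomes were also more frequent in NCC. They numbered 137 in ESC Hi-C and 184 in NCC Hi-C, 49 and 94 in FGFR1 HiChIP, and 26 and 46 in CTCF HiChIP. The NCC over ESC ratio per 1000000 read pairs was 1.31 (1.05–1.65), 1.59 (1.11–2.29) and 2.04 (1.23–3.43). All read pairs between autosomes together had ratios of 1.15, 1.14 and 1.24, each inside the copy's interval. Whether the copy rose beyond them was not tested.

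**Figure D3:**
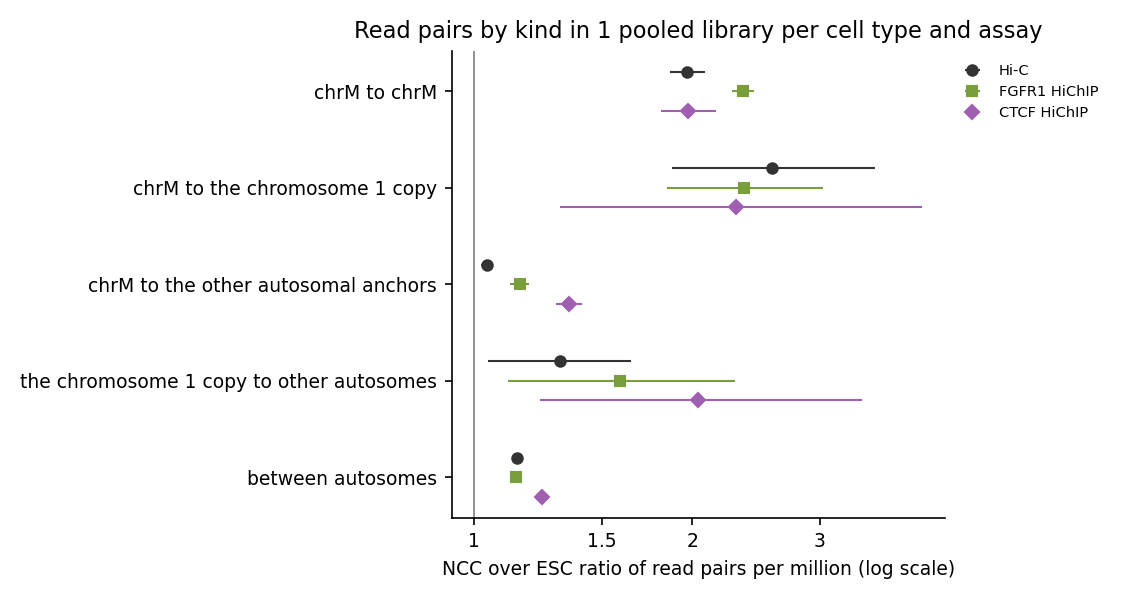
NCC over ESC ratio of read pairs per 1000000 (log scale) by kind of read pair, for Hi-C (circles), FGFR1 HiChIP (squares) and CTCF HiChIP (diamonds), 1 pooled library per cell type and assay. Bars are 95% intervals for counting error. Read pairs inside chrM and between chrM and the chromosome 1 copy lie between 1.97 and 2.58, and those of the other autosomal anchors between 1.04 and 1.35.

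The partners were then counted in 100 kb bins. A bin was called at 5 or more chrM read pairs and 3 times or more its expectation. In ESC Hi-C, 130 of 23028 bins were called (0.565%) and in NCC Hi-C 147 of 22936 (0.641%). In FGFR1 HiChIP, 1 bin was called in ESC (0.00432%) and 10 in NCC (0.0428%), and in CTCF HiChIP 1 in ESC (0.00445%) and 1 in NCC (0.0044%). The bin of the chromosome 1 copy was called in each of the 6 libraries, and it was the only such bin. The median expectation was 0.773 read pairs per bin in ESC Hi-C and 0.842 in NCC Hi-C, and 0.158–0.420 in the HiChIP libraries, so that few bins could reach 5 read pairs.

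Without the bin of the copy, 5 bins were called in both Hi-C libraries. This is 3.88% of the 129 called in ESC and 3.42% of the 146 called in NCC, where 0.641% and 0.565% of all bins were called. The 129 bins called in ESC Hi-C had 243 read pairs in NCC Hi-C, which did not choose them, against 182 expected without candidate copies, a ratio of 1.34 (1.17–1.52). In the HiChIP libraries the same bins were at 1.11 (0.838–1.43) in ESC FGFR1, 1.32 (1.06–1.63) in NCC FGFR1, 1.18 (0.799–1.67) in ESC CTCF and 1.84 (1.40–2.39) in NCC CTCF. The 145 bins called in NCC Hi-C that could be read in ESC Hi-C had a ratio of 1.30 there (1.13–1.48). In HiChIP these bins were at 1.25 (0.966–1.60) in ESC FGFR1, 1.23 (0.987–1.52) in NCC FGFR1, 1.24 (0.854–1.74) in ESC CTCF and 1.54 (1.14–2.02) in NCC CTCF, so that only the last interval excluded 1. These ratios lie well below the limit of 3 that chose the bins. The mean GC content of the bins called in ESC Hi-C was 45.0%, and that of all bins 42.1%. With the expectation also scaled by the decile of GC content and of inter-chromosomal ends, the ratio in NCC Hi-C was 1.32 (1.16–1.495) for bins chosen in ESC, and in ESC Hi-C 1.16 (1.01–1.33) for bins chosen in NCC.

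Across the bins, the ratio of observed to expected was nearly unrelated between libraries. Spearman's rho was 0.065 between ESC and NCC Hi-C over 22493 bins, and it was between 0.004 and 0.047 for the other 14 pairs of libraries. Bins share mapping and base composition, and most hold 0 or 1 read pair, so that these values are a description. Over the bins with an expectation of 1 or more in both, rho between the Hi-C libraries was 0.088 (8537 bins).

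Of the bins called in either Hi-C library, leaving out the bin of the chromosome 1 copy, the one with the most read pairs in both together was chr13:12800001-12900000, which holds the start of Prl2c3, a prolactin family gene. It had 8 read pairs in ESC Hi-C (1.71 expected) and 6 in NCC Hi-C (1.79 expected), and was called in both. In FGFR1 HiChIP it had 1 in ESC (1.15 expected) and 4 in NCC (1.65 expected), and in CTCF HiChIP 0 in ESC (0.421 expected) and 4 in NCC (0.691 expected). The bin chr4:140300001-140400000, nearest to Igsf21, an immunoglobulin superfamily gene, was also called in both, with 6 (1.82 expected) and 7 (2.17 expected). The next bins were called in 1 cell type only. At Tbc1d22a on chromosome 15, ESC Hi-C had 8 (1.62 expected) and NCC Hi-C 5 (1.99 expected). At Bod1 on chromosome 11, ESC Hi-C had 3 (1.21 expected) and NCC Hi-C 9 (1.36 expected). Intervals of the ratios overlapped between the cell types for each of these 4 bins. The other 6 of the 10 bins had 4 to 8 read pairs in each Hi-C library and 0 to 4 in each HiChIP library, and were called in 1 Hi-C library each. They held or neighbored Lrp8, Magoh and 0610037L13Rik, Meaf6 and Zc3h12a, Nphp4, Rimbp2 and Stx2, Aldh1l1, Slc41a3 and Iqsec1, and Dync1h1, 1700001K19Rik and Hsp90aa1.

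A single anchor in the bins, chr8:125031644-125038170 at Tsnax, had 5 chrM read pairs in ESC Hi-C where 0.166 were expected. It had 1 in NCC Hi-C (0.176 expected) and 0 in the 4 HiChIP libraries. Of 69 bins with 10 or more chrM read pairs in both Hi-C libraries together, NCC was at 2 times or more of ESC in 11 (15.9%) and ESC at 2 times or more of NCC in 6 (8.7%), as observed over expected, with a median log2 ratio of 0.02 (0.5 read pairs added to each count). FGFR1 HiChIP had 3 such bins, of which 1 was higher in NCC (33.3%) and 1 in ESC (33.3%), and CTCF HiChIP had 1, which was neither.

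The autosomes did not take part evenly. Without candidate copies, chromosome 1 had 1603 chrM read pairs in ESC Hi-C (1385 expected) and 1629 in NCC Hi-C (1472 expected), a ratio of 1.16 (1.10–1.22) and 1.11 (1.05–1.16). Chromosome 19 had 543 (808 expected) and 647 (866 expected), a ratio of 0.672 (0.617–0.731) and 0.747 (0.691–0.807). With this expectation, chromosome 1 was the highest in each of the 6 libraries, at 1.11 to 1.25, and chromosome 19 the lowest, at 0.623 to 0.747. Chromosomes 1, 5, 7 and 8 were above 1 and chromosomes 11, 16, 18 and 19 below 1 in all 6 libraries, although not every interval excluded 1. Across the 19 autosomes, which share libraries and expectation, the ratio ran with chromosome length, with a Spearman's rho of 0.879 in ESC Hi-C, 0.819 to 0.853 in 4 libraries and 0.381 in ESC CTCF HiChIP.

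The expectation bears on this order. The ends between autosomes are relatively more frequent on short chromosomes, and when the expectation was taken from the ends of all autosomal read pairs, chromosome 19 remained the lowest in all 6 libraries, at 0.683 to 0.866, but chromosome 1 was the highest in none. It then lay at 1.02 to 1.14, and the highest was chromosome 3 in both Hi-C libraries (1.13 in ESC and 1.14 in NCC), chromosome 17 in ESC FGFR1 and ESC CTCF HiChIP (1.15 and 1.21), and chromosome 7 in NCC FGFR1 and NCC CTCF HiChIP (1.14 and 1.13). Chromosome 5 was then below 1 in Hi-C (0.97 in ESC and 0.96 in NCC) and chromosome 18 above 1 (1.01 and 1.05). Per length of chromosome, chromosome 19 lay at 0.836 to 1.06. Chromosome 14 was then the lowest in 5 libraries (0.687 in ESC Hi-C) and chromosome 11 the highest in 5 libraries (1.48 in ESC Hi-C).

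**Figure D4:**
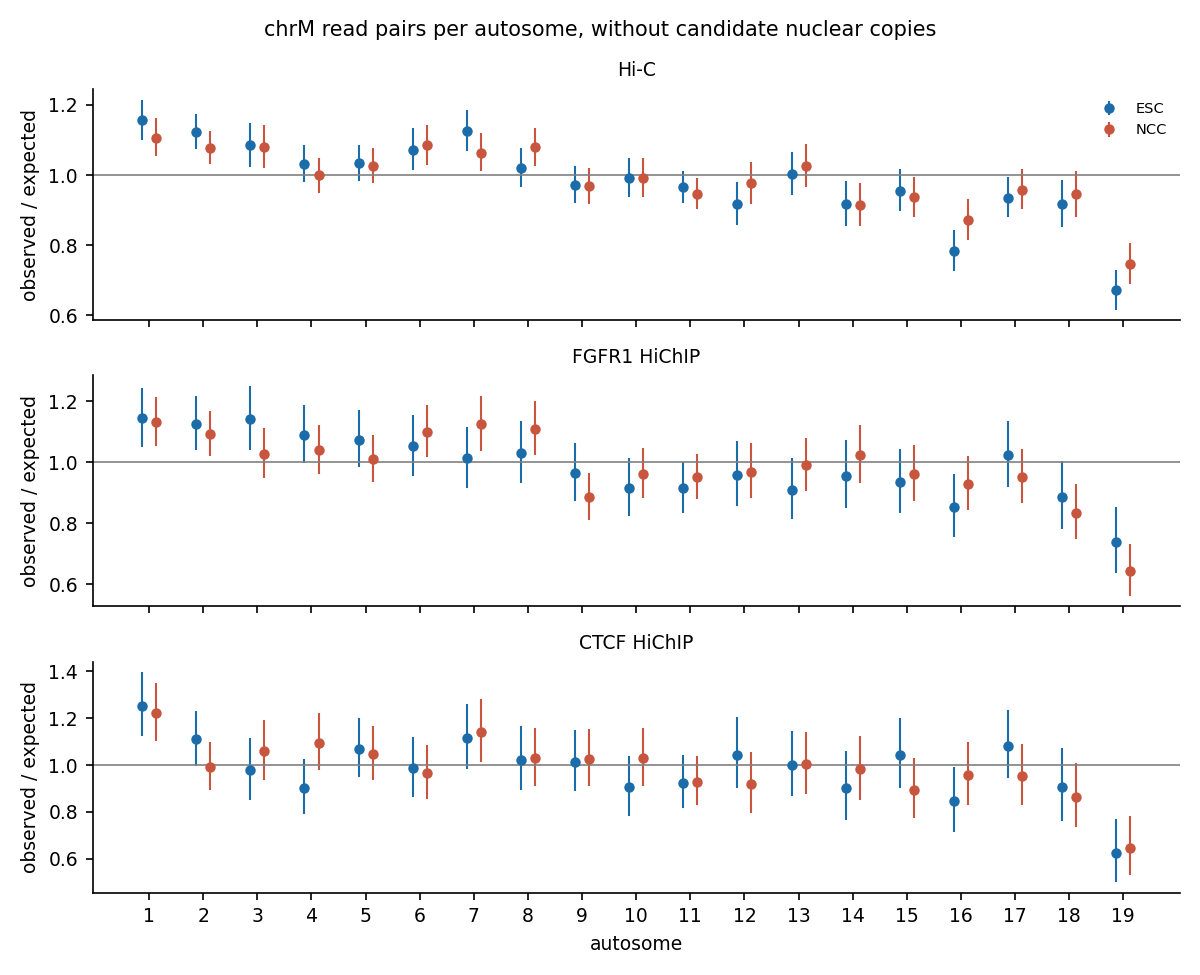
Observed over expected chrM read pairs for each autosome in the 6 pooled libraries (ESC blue, NCC red, 1 panel per assay), without candidate nuclear copies and with the expectation from ends between different autosomes. Bars are 95% Poisson intervals. Chromosome 1 lies at 1.11 to 1.25 and chromosome 19 at 0.623 to 0.747 in all libraries.

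Bins rich in genes and contacts had fewer chrM read pairs than their contacts predict. In the decile of bins with the lowest GC content (mean 36.5%), observed over expected was 1.43 in ESC Hi-C (1.33–1.53) and 1.58 in NCC Hi-C (1.47–1.69). In the decile with the highest GC content (mean 49.7%), it was 0.833 (0.809–0.857) and 0.837 (0.814–0.860). In the HiChIP libraries the lowest decile lay between 1.04 and 1.32 and the highest between 0.871 and 0.887. In read pairs per bin the order was the opposite, with 0.352 in the lowest and 2.04 in the highest GC decile of ESC Hi-C. The chrM read pairs thus followed the contacts of the bins, but less steeply.

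The same held for gene content. Bins without a protein-coding gene start were at 1.20 in ESC Hi-C (1.17–1.22) and 1.21 in NCC Hi-C (1.18–1.23), and bins with 5 or more at 0.737 (0.696–0.780) and 0.738 (0.698–0.780). By decile of inter-chromosomal ends, the ratio fell from 1.70 to 0.707 in ESC Hi-C, and from 3.37 to 0.618 in ESC CTCF HiChIP. With the expectation from all ends, it fell from 2.43 to 0.695 in ESC Hi-C and from 1.53 to 0.719 in ESC CTCF HiChIP, and the lowest decile was then higher in ESC Hi-C than in ESC CTCF HiChIP. These deciles were formed from the same ends as the expectation, so that counting error alone raises the lowest decile, most in the shallow libraries. GC content, gene content and contacts vary together over the bins, and which of them the ratio runs with was not tested.

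**Figure D5:**
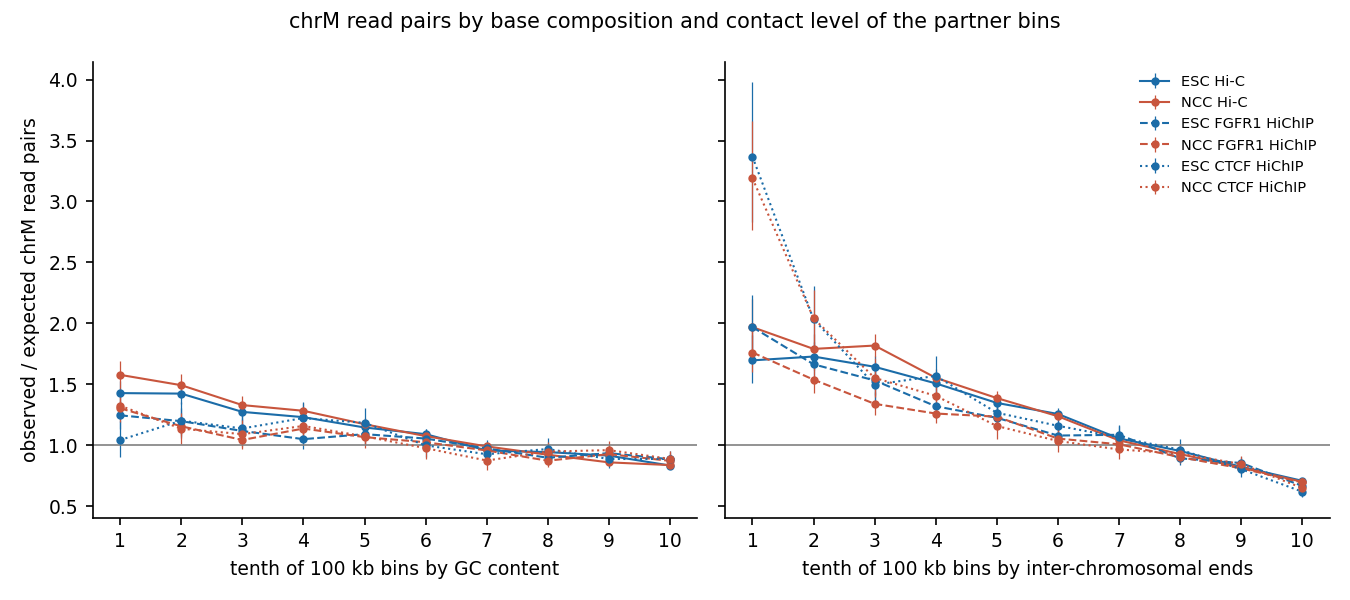
Observed over expected chrM read pairs in deciles of 100 kb bins by GC content (left) and by inter-chromosomal ends (right), from the lowest (1) to the highest (10), in 6 pooled libraries without candidate nuclear copies. Bars are 95% Poisson intervals. The ratio falls to 0.833–0.887 in the highest GC decile and to 0.618–0.707 in the decile with the most ends.

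Nuclear genes for mitochondrial proteins were examined by the bin of their gene start, since these genes work together with those of chrM. The 91 genes for subunits and assembly of the respiratory complexes and ATP synthase had 147 read pairs in ESC Hi-C (188 expected) and 142 in NCC Hi-C (196 expected). Their ratio was 0.782 (0.660–0.919) and 0.723 (0.609–0.852), with medians of 0.672 and 0.677. All bins with a protein-coding gene start were at 0.879 (0.863–0.894) and 0.874 (0.859–0.889), with medians of 0.720 and 0.716. Of the bins of this list, 1 was called in ESC Hi-C (5 read pairs where 1.07 were expected) and 0 in NCC Hi-C, where 0.624% and 0.675% of all bins with a gene start were called. It holds the start of Ndufaf7, an assembly factor of complex I, named after its values were seen.

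The 78 genes for mitochondrial ribosomal proteins had a ratio of 0.701 in ESC Hi-C (0.577–0.845) and 0.780 in NCC Hi-C (0.653–0.925), with 0 bins called. The 20 genes for replication, transcription and packaging of mitochondrial DNA were at 0.894 (0.626–1.24) and 0.812 (0.559–1.14), and the 8 regulators of mitochondrial genes at 0.707 (0.376–1.21) and 0.706 (0.376–1.21). In the HiChIP libraries these lists had 0 called bins (of all bins with a gene start, 0.0103% and 0.0614% were called in ESC and NCC FGFR1 and 0.0104% in each CTCF library). Within the lists, the bin of Tfb1m, a methyltransferase for mitochondrial ribosomal RNA, had 5 read pairs in ESC Hi-C (1.39 expected) and 2 in NCC Hi-C (1.16 expected), and was the 1 called bin of its list. The bin of Mrps28, a ribosomal protein, had 3 (1.98 expected) and 6 (2.23 expected), and those of the ribosomal proteins Mrps2 and Mrpl28 had 2 (2.52 expected) and 6 (2.42 expected), and 3 (3.07 expected) and 4 (2.98 expected). Of the respiratory list, the bin of Atp5o, an ATP synthase subunit, had 5 (2.39 expected) and 4 (2.24 expected), that of Atp5d, another subunit, 2 (4.26 expected) and 7 (4.72 expected), and that of Cox8b, a cytochrome c oxidase subunit, 6 (3.35 expected) and 3 (2.50 expected). The bin of Tefm, a mitochondrial transcription elongation factor, had 4 (3.11 expected) and 3 (3.03 expected), and that of Dna2, a nuclease and helicase, 4 (2.18 expected) and 2 (2.25 expected). The bin of Yy1, a transcription factor that regulates many mitochondrial genes, had 2 (1.93 expected) and 5 (2.24 expected). The bins of the coactivators Pprc1 and Ppargc1b had 3 (3.82 expected) and 2 (3.85 expected), and 1 (2.11 expected) and 3 (2.12 expected). No list had an interval above the ratio of all bins with a gene start in either Hi-C library or in any HiChIP library, where the 16 ratios ran from 0 to 1.33. Some intervals lay below that ratio. These were the respiratory list in NCC Hi-C (0.609–0.852 against 0.874) and the ribosomal proteins in ESC Hi-C (0.577–0.845 against 0.879). The ribosomal proteins in ESC FGFR1 HiChIP were another (0.401–0.8995 against 0.904). The lists were not matched for the number of genes per bin, with which the ratio also fell.

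On the side of chrM, the read pairs were divided between its 2 anchors. The first anchor had less than its share of the anchored length in all 6 libraries. The first anchor, with both ribosomal RNA genes, mt-Nd1, mt-Nd2 and mt-Co1, had 10170 of the read pairs with autosomal anchors other than candidates in ESC Hi-C (44.5%, 43.9–45.2%) and 11872 in NCC Hi-C (48.7%, 48.1–49.4%). It makes up 50.3% of the anchored length of chrM in Hi-C. In the HiChIP libraries its share was 47.0–48.7%, against 50.6–51.0% of the anchored length. All 6 intervals lay below the share of length. The second anchor holds mt-Nd3, mt-Nd4l, mt-Nd4, mt-Nd5, mt-Nd6 and mt-Cytb. Of the read pairs of the chromosome 1 copy, the first anchor had 21.8% in ESC Hi-C (12.9–34.4%) and 31.0% in NCC Hi-C (24.1–39.0%), both below the share for the other partners. In the HiChIP libraries it had 35.0–46.1% of the copy's read pairs, and these intervals included the share of the other partners. Read pairs inside chrM joined its 2 anchors in 36.1% and 36.6% of cases in ESC and NCC Hi-C, 34.2% and 34.7% in FGFR1 HiChIP, and 46.8% and 50.3% in CTCF HiChIP.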

How the data were processed

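The authors aligned 75-base reads to mm10, kept valid pairs with HiC-Pro, and counted pairs of anchors by hichipper with no limit on q, merging both replicates. Each deposited score is a count, the read pairs that join both anchors, and the totals differ between libraries. The paper reports normalizing valid pairs between the compared cell types. Whether the deposited scores include this step is not known. The 6 tables hold 1065662 to 21279750 read pairs, and the replicates cannot be separated. All anchors on the chromosomes and chrM end at GATC sites of GRCm38, which was checked before sequences were read.

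Expected chrM read pairs were a bin's or anchor's share of the read-pair ends between different autosomes, multiplied by the chrM to autosome read pairs of the library. Anchors were placed in 100 kb bins at their midpoint. Sequence matches came from BLAST 2.17.0 (e-value limit 1e-10) and genes from GENCODE M21. Ratios of libraries were tested with exact binomial or Fisher's exact tests (scipy 1.17.1), and intervals are Wilson, exact Poisson or exact conditional ones. For ratios to read pairs inside chrM the interval is a normal one of the log ratio. The same holds for the copy's ratios that were tested with Fisher's exact test. It also holds where the NCC over ESC ratio of 1 assay was divided by that of another. The calls and ratios were tested on simulated data. Named bins and genes were those with the most read pairs in both Hi-C libraries together, up to 10 bins and 3 genes per list. The anchor at Tsnax, the called genes of the lists and the comparison of the copy's read pairs with other kinds were chosen after values were seen. The members and lists were chosen with earlier results of these data known.

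Alternatives were another scale, a score of 2 or more, other limits and bin sizes, stricter matches and another expectation.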

Additional observations from a re-analysis of the deposited data

Results flagged for a closer look

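The NCC over ESC ratio of chrM to autosome read pairs, scaled by read pairs between autosomes, differed between the assays, as the intervals of their ratios excluded 1. The ratio in FGFR1 HiChIP was 1.12 times that in Hi-C (95% interval 1.08–1.16), the ratio in CTCF HiChIP 1.20 times that in Hi-C (1.14–1.25), and the ratio in CTCF HiChIP 1.07 times that in FGFR1 HiChIP (1.01–1.12). Without candidate nuclear copies these values were 1.11 (1.07–1.15), 1.20 (1.14–1.25) and 1.08 (1.02–1.13). They compare pooled libraries, and the intervals cover counting error only. The order depends on the scale. Per read pair inside chrM, the NCC over ESC ratio was 0.531 (0.5002–0.563) in Hi-C and 0.498 (0.476–0.522) in FGFR1 HiChIP. In CTCF HiChIP it was 0.687 (0.624–0.757). On that scale FGFR1 HiChIP was not above Hi-C, and the differences between assays were not tested.

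Read pairs of chrM with sequences that are not autosomes were present and were not used in the report. With chrX there were 146 in ESC Hi-C, 117 in NCC Hi-C, 52 and 101 in ESC and NCC FGFR1 HiChIP, and 35 and 46 in ESC and NCC CTCF HiChIP. Observed over expected was 0.793–1.05 for chrX, and only the interval of NCC Hi-C (0.683–0.989) excluded 1. With the unplaced sequence chrUn_JH584304 there were 33 in ESC Hi-C, 34 in NCC Hi-C, 15 and 17 in ESC and NCC FGFR1 HiChIP, and 7 in each CTCF HiChIP library. This was 0.238–0.601 of the expectation, with all 6 intervals below 1.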

How the results depend on the processing

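The count of 1 anchor with many read pairs kept its value under 17 of 18 combinations of library and alternative, and 2 anchors passed in ESC Hi-C at 5 read pairs and 5 times, where Tsnax was added. The NCC over ESC ratio with all anchors turned in Hi-C when scaled by all autosomal read pairs (1.05) and at a score of 2 or more (1.29), and when scaled by read pairs inside chrM it turned in FGFR1 (0.498) and CTCF HiChIP (0.687). Without candidates the values were 1.04, 1.24, 0.492 and 0.685. FGFR1 HiChIP passed the threshold per autosomal read pair (1.18, without candidates 1.16) and at a score of 2 or more (1.71 and 1.58). The other 12 values of this ratio kept direction and call.

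At a score of 2 or more, chrM made up 7.08%, 8.95%, 9.08%, 14.6%, 4.33% and 9.43% of inter-chromosomal read pairs in ESC and NCC Hi-C, FGFR1 and CTCF HiChIP in that order. ESC CTCF HiChIP was then below ESC Hi-C. With all scores kept, chrM made up 0.110%, 0.115%, 0.283%, 0.331%, 0.342% and 0.464% of all read pairs. In the same order, anchors with a sequence match were at 16.0, 39.3, 63.6, 115, 29.98 and 34.7 times the expectation, and at 95% identity at 67.3, 150, 132 and 191 in the first 4. Anchors within 5 kb of a match were at 7.51, 16.9, 29.7, 56.2, 14.4 and 19.3. The copy was among the anchors of each of these sets.

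Called bins of 1 mb numbered 45, 51, 32, 26, 27 and 39 in the same order. At 10 read pairs and 5 times, 1 bin was left in ESC Hi-C, 2 in NCC Hi-C and 1 in NCC FGFR1 HiChIP, and 1 was shared by both Hi-C libraries. With the expectation from all read-pair ends, 2 were called in ESC FGFR1, ESC CTCF and NCC CTCF HiChIP, and 2 in ESC FGFR1 HiChIP with anchors counted in all bins they overlap. The cause of these changes was not tested. The Hi-C ratios of the 4 gene lists stayed within their intervals with neighboring bins added and without bins of candidate copies. The expectation scaled by base composition was chosen after seeing the data.

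No paired analysis was possible because the tables merge both replicates, so neither a replicate block nor leaving out a replicate was run. With a median expectation under 1 read pair per bin, single bins cannot be ranked at this depth.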
